A study of Mus musculus with 217 samples.

Results

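Brain endothelium was compared between 24 hr and 6 hr after lipopolysaccharide (LPS), a bacterial cell wall component injected to provoke systemic inflammation. The sequencing runs of each library (same tissue, time and replicate number) were summed, and libraries with under 3% of their reads on genes were left out. This left 9 of 11 libraries, 5 of 6 at 6 hr and 4 of 5 at 24 hr, made from 26 of the 217 sequencing runs in the series. The whole series held 98 libraries of brain, lung and heart endothelium, of which 80 passed the same limit. The libraries left out were 6 hr replicate 5, with 2.53% of its reads on genes, and 24 hr replicate 3, with 2.08%. The kept libraries had 54.7% to 67.9% of their reads on genes and 9085705 to 28391180 gene counts each.

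The mice were adult C57BL/6J of genotype Cdh5CreERT2/+; Rpl22HA/+, called RiboTagEC. All groups, the 0 hr controls included, had received 5 mg tamoxifen by gavage 4 times, every other day, when 4 to 6 weeks old. The 6 hr and 24 hr groups then received 10 mg/kg LPS into the peritoneum, and the 0 hr group (5 of 6 libraries kept) is set beside them as the level before LPS. The HA tag sits on 1 of the 2 Rpl22 alleles and only in cells where the Cdh5-driven Cre recombined, and the tagged ribosomes were pulled down from homogenate of the whole tissue. Each value is therefore the amount of ribosome-bound mRNA in the pulldown, and fewer cells of a type cannot be told apart from less mRNA per cell. The labels do not say which libraries came from which mouse, so p-values measure the spread between these libraries.

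Brain ECs form the blood-brain barrier: neighbouring cells are sealed by tight junctions, efflux pumps and selective carriers control what passes, and Wnt signals from the surrounding tissue maintain this state. LPS is sensed through TLR4, which drives NF-kappaB target genes such as chemokines, cytokines and adhesion molecules, and, through interferons, a second set of antiviral genes. The first of these are classically transient, while acute-phase and tissue repair genes can come later.

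One kept library did not behave as its label says. Over the 50 genes with the largest rise from 0 hr to 6 hr in 6 hr replicates 1 to 4, the library labelled 6 hr replicate 6 lay below every other 6 hr library in 50 and within the range of the 0 hr libraries in 35. The median log2 difference from 0 hr over these genes was 5.44 in replicates 1 to 4 and 0.31 in replicate 6. Saa3, an acute-phase serum amyloid gene, stood at 0.53 log2 CPM (counts scaled to 1000000 gene counts per library) in replicate 6 against 10.63 to 10.72 in the other 6 hr libraries. Lcn2, the siderophore-binding lipocalin, was the exception in part, since 8.50 in replicate 6 lay between the 0 hr libraries (2.66 to 5.40) and the other 6 hr libraries (12.50 to 13.20). The results are therefore given without this library, a choice made after its values were seen, and with all 9. A gene for which nothing is said of the 9 libraries was not called with them. Unless stated otherwise, levels are log2 CPM in the order 6 hr replicates 1, 2, 3 and 4 and 24 hr replicates 1, 2, 4 and 5, and log2 fold changes are fitted values with their standard error, without 6 hr replicate 6.

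The file names fall into library series, and these were a term in every fit. 6 hr replicates 1 to 4 belong to series 2, as does 24 hr replicate 2. 24 hr replicate 1 and 6 hr replicate 6 belong to series 1, and 24 hr replicates 4 and 5 to series 4, which holds no 6 hr library. The difference between 24 hr replicate 2 and the 4 other libraries of series 2 is therefore the within-series value given beside the fits. A fitted fold change can differ from the difference of the plotted levels, because the series effect was estimated from all brain time points.

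The libraries held endothelial markers, but in the 6 hr libraries without replicate 6 and in 24 hr replicate 2 their sum lay below that of neuron markers. The summed level of 14 endothelial markers was 2389 to 4238 CPM at 6 hr without replicate 6, 4266 to 6683 at 24 hr and 4135 to 10188 at 0 hr, and no marker was at 0 in any group. The 14 neuron markers summed to 6437 to 13141 CPM at 6 hr without replicate 6. At 24 hr they summed to 2634, 10797, 1420 and 1652 CPM, so that replicate 2 lay within the 6 hr range and the other 3 below it. The 10 oligodendrocyte markers showed the same order, with 3227 to 8183 CPM at 6 hr against 1397, 5707, 837 and 675 CPM at 24 hr. The 9 perivascular fibroblast markers were at 1130 to 2455 CPM at 6 hr and 8276, 2542, 6151 and 6880 CPM at 24 hr. The 8 monocyte markers were at 199 to 423 CPM at 6 hr, 163 to 457 at 24 hr and 14.3 to 37.9 at 0 hr, and the 12 neutrophil markers at 35.3 to 505 CPM at 6 hr, with 505 in replicate 2 alone, and 52.5 to 136 at 24 hr. No gene of the neuron, oligodendrocyte, fibroblast, monocyte or neutrophil lists passed the test between 24 hr and 6 hr.

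**Figure D1:**
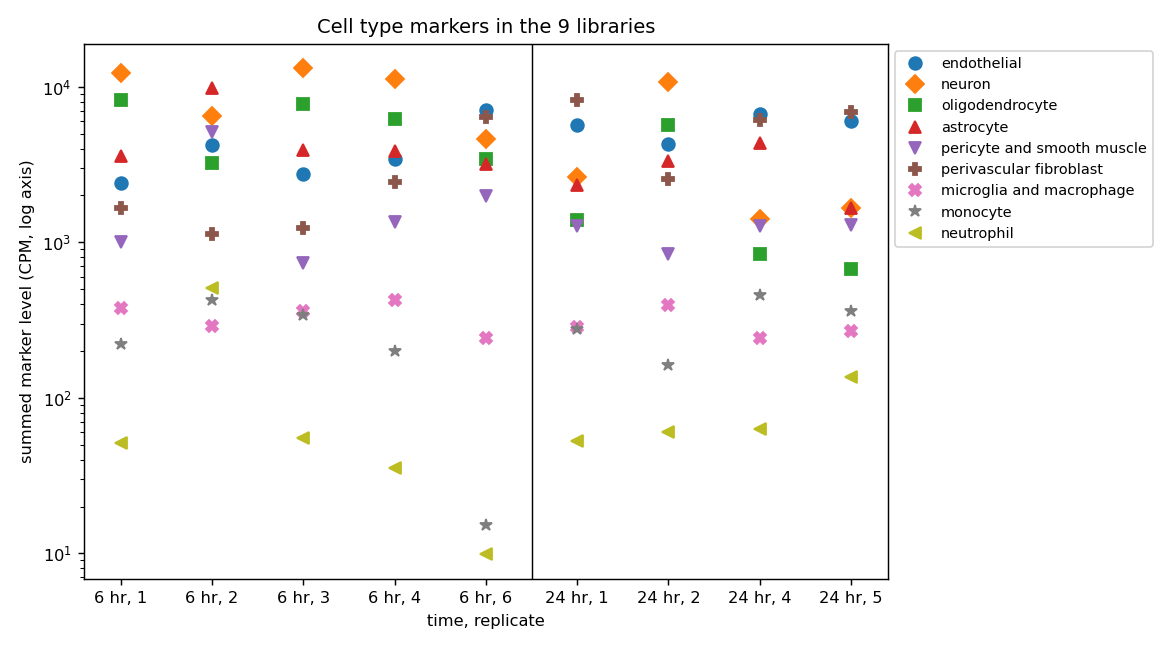
Summed level of each cell type's markers (CPM, log axis) in each of the 9 libraries, by time and replicate, 1 point per list and library. Endothelial markers were between 2389 and 4238 CPM in 6 hr replicates 1 to 4 and between 4266 and 6683 CPM at 24 hr, while neuron markers in 24 hr replicate 2 (10797 CPM) lay within the 6 hr range and those of the other 24 hr libraries below it.

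With all 9 libraries, 51 of 19234 genes were higher at 24 hr than at 6 hr (0.265%) and 5 were lower (0.026%). Without 6 hr replicate 6, 125 of 19243 genes were higher (0.65%) and 95 were lower (0.494%). Of the genes called in these fits, 52 were called in both, all in the same direction. The 125 higher genes had a median log2 fold change of 1.42, and the 95 lower genes a median of -2.02. The 24 hr and 6 hr levels did not overlap for 120 of the 125 higher genes but for 23 of the 95 lower genes, and the mean 24 hr level was the lower one for 91 of these 95. Over the 19208 genes compared in this way, 2306 (12.0%) did not overlap in the higher direction and 2098 (10.9%) in the lower direction. The library labelled 6 hr replicate 6 lay within the 0 hr range for 104 of the 125 higher and 79 of the 95 lower genes. The same share over all genes was not counted, so these counts have no background beside them.

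Single libraries carried part of these counts. From the 9 libraries, in place of 51 higher and 5 lower genes, 4 and 0 were called without 24 hr replicate 2, 10 and 1 without 6 hr replicate 1, 32 and 1 without 6 hr replicate 3 and 33 and 1 without 24 hr replicate 1. The lower genes numbered 2 without 24 hr replicate 4 or 5 and 16 without 6 hr replicate 2. With 6 hr replicate 6 left out already, leaving out 24 hr replicate 2, the 24 hr library of series 2, gave 26 higher and 31 lower genes. Leaving out 6 hr replicate 1 gave 38 and 47, leaving out 6 hr replicate 3 gave 51 and 55, and leaving out 24 hr replicate 1 or 6 hr replicate 4 moved the lower genes to 60 and 149. Of the 65 called genes named by rule for this comparison, 18 were still called without 24 hr replicate 2 and 61 without 6 hr replicate 4.

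Interferon-stimulated genes were the listed group with the most genes to fall between 6 hr and 24 hr. Of the 42 on the list, 23 were lower at 24 hr and 0 higher, with a median log2 fold change of -1.77, against a median of -0.01 over all genes tested. These genes encode antiviral enzymes, sensors and regulators that interferons switch on. At 6 hr 41 of the 42 were higher than at 0 hr, beside 7.63% of all genes higher and 6.71% lower. At 24 hr 23 were still higher than at 0 hr, beside 7.46% of all genes higher and 5.91% lower. These comparisons share libraries with that of 24 hr against 6 hr. The same shares of all genes apply to the counts against 0 hr of the lists below.

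Ifi44, a cytoplasmic interferon-induced protein (chromosome 3, 151730922 to 151749960), was at 7.61, 6.97, 7.39 and 7.02 log2 CPM at 6 hr and at 5.61, 4.44, 5.66 and 6.00 at 24 hr. The groups did not overlap, and Ifi44 fell by 2.59 ± 0.35 on the log2 scale (adjusted p = 0.000173, edgeR quasi-likelihood test), with 5.25 in 6 hr replicate 6. Oas1a, one of the enzymes that make 2',5'-oligoadenylate to activate RNase L (chromosome 5, 120896256 to 120907521), was at 6.50, 6.07, 6.27 and 5.58 at 6 hr and 4.58, 3.26, 4.74 and 4.86 at 24 hr. It also separated the groups completely, with a log2 fold change of -2.45 ± 0.31 (adjusted p = 0.000101). Dhx58, the RIG-I-like RNA helicase LGP2, went from 6.77, 5.89, 6.28 and 5.33 to 4.26, 3.27, 4.58 and 4.83 (log2 fold change -2.43 ± 0.31, adjusted p = 0.000101). In all 3 genes the lowest 24 hr level was that of replicate 2.

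Tor3a and Sp100, known to respond to interferon but not on the list, fell as well. Tor3a, an ATPase of the torsin family (chromosome 1, 156653617 to 156674356), was at 7.26, 6.76, 6.89 and 6.20 at 6 hr and 5.28, 4.51, 5.46 and 5.66 at 24 hr, where the 0 hr libraries were at 4.64 to 5.70. Its log2 fold change was -2.15 ± 0.22 (adjusted p = 8.05e-06), and it was also called with all 9 libraries (-1.79 ± 0.31, adjusted p = 0.0102). Among genes averaging at least 5 log2 CPM, Sp100, a component of nuclear bodies, was the 1 gene called lower with all 9 libraries whose groups did not overlap. It was at 7.53, 7.23, 7.30 and 6.31 at 6 hr, 6.43 in replicate 6, and 5.80, 5.20, 6.17 and 6.18 at 24 hr (log2 fold change -1.67 ± 0.28 without replicate 6 and -1.41 ± 0.30 with it, adjusted p = 0.00241 and 0.0357). At 24 hr Tor3a and Sp100 did not pass against 0 hr, with log2 fold changes of -0.18 ± 0.19 and -0.52 ± 0.25 (adjusted p = 0.602 and 0.181).

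Among the listed genes, the largest fitted falls were those of Mx1, a dynamin-like antiviral GTPase (-3.45 ± 0.69, adjusted p = 0.00962), Oasl1 (-3.11 ± 0.62, adjusted p = 0.00935), Oas3 (-3.07 ± 0.50, adjusted p = 0.0014) and Isg20, an exonuclease (-3.05 ± 0.38, adjusted p = 0.000101). Mx1 was at 4.41 to 5.90 at 6 hr and 1.93 to 3.98 at 24 hr, with no overlap. The groups of Oasl1, Oas3 and Isg20 overlapped. For Oas3, 24 hr replicate 2 lay below the other 24 hr libraries by a gap of 0.976 of their range. Isg15, the ubiquitin-like modifier, was at 10.00, 8.77, 9.27 and 8.38 at 6 hr and 7.20, 7.11, 8.34 and 8.68 at 24 hr, so that its groups overlapped (log2 fold change -2.10 ± 0.40, adjusted p = 0.00721). Ifit1, which binds viral RNA, overlapped too, with 10.33, 9.37, 9.36 and 7.90 against 7.96, 7.21, 8.33 and 8.78 (-2.23 ± 0.45, adjusted p = 0.0101). Only 6 of the 42 genes had groups that did not overlap, all lower at 24 hr, where 10.9% of all genes did so. Ifi44, Oas1a, Dhx58, Mx1 and Oasl2 (-1.94) were those of them that also passed the test. Outside the list, AW112010 (-1.84) and Slfn5, a Schlafen family member (-1.43), also fell with no overlap. Oas and Oasl genes, Ifit3 and Ifit3b, and the Gbp genes have close paralogs, and reads they share may not have been counted.

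The fall of the list rested on how library series were handled. Within series 2, 41 of the 42 genes were lower at 24 hr, with a median difference of -1.62, a value that rests on 24 hr replicate 2 and is not independent of the fit. The plotted means were lower at 24 hr for 31 of 42. Without the series term 3 of the 42 were called lower, with a median of -0.88. With all 9 libraries, 0 of the 42 passed, with a median of -1.29. Leaving out 24 hr replicate 2 left 14 called.

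**Figure D2:**
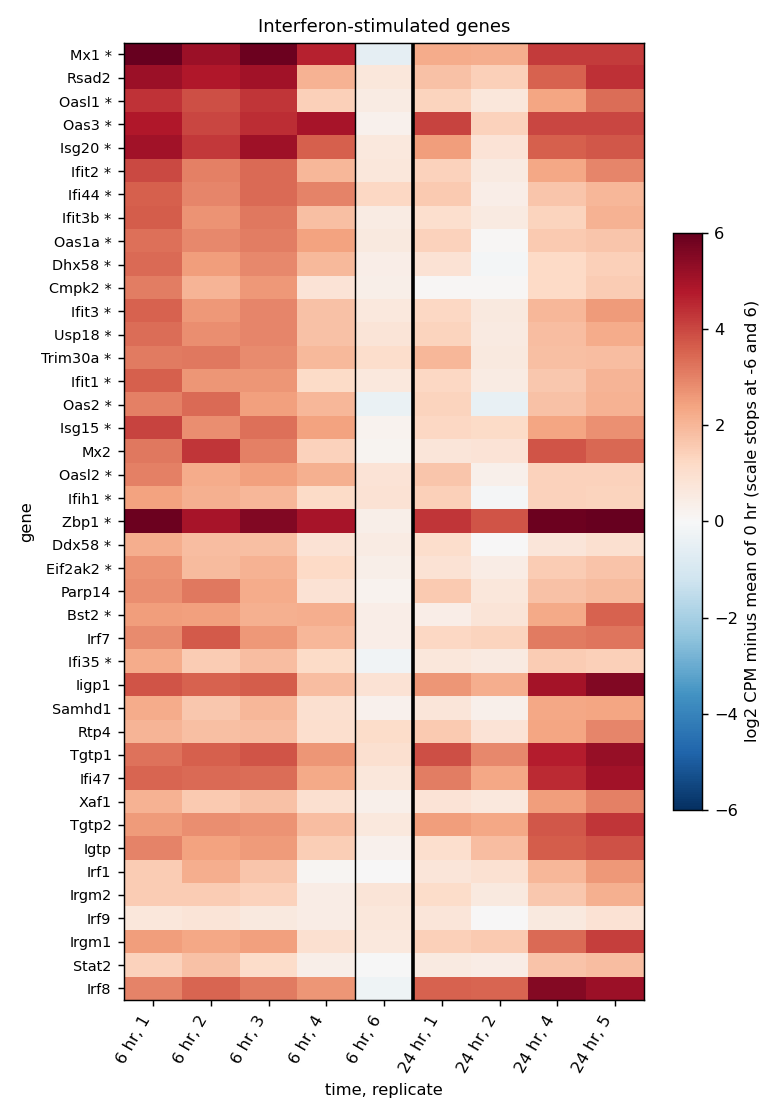
Level of 41 of the 42 interferon-stimulated genes in each of the 9 libraries as log2 CPM minus the mean of the 0 hr libraries (colour, scale from -6 to 6), ordered by fitted log2 fold change without 6 hr replicate 6, with an asterisk at the 23 genes called lower at 24 hr. 6 hr replicates 1 to 4 are above 0 hr throughout most of the list, 6 hr replicate 6 is near 0 hr, and 24 hr replicates 4 and 5 are higher than 24 hr replicates 1 and 2 for many genes in the lower part.

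The promoters of these genes are shown because their letters differed from those of other genes tested. RefSeq promoter windows (GRCm38.p6, 250 bases before to 50 after the start) were matched by symbol for 74 of the 95 lower and 93 of the 125 higher genes and 12937 of all genes tested. The core of the interferon-stimulated response element was searched as 2 GAAA blocks with any 2 bases between them, on either strand, where matches may overlap each other. It was found in the windows of 29 of the 74 lower genes (39.2%), of 1 of the 93 higher genes (1.08%) and of 487 of the 12937 genes tested (3.76%), and in 18 of 32 on the interferon-stimulated list (56.2%). Of all windows of this length, 3.44% held it. The ETS core CCGGAAGT was in 2.70% of lower, 6.45% of higher and 7.59% of all genes tested, and the NF-kappaB site, searched as GGGA, any 4 bases and CC, in 32.4%, 31.2% and 30.0%. The lower genes include paralogs with similar promoters, and a match is a description of the letters only. The windows of Isg15 (chr4:156200769-156201068, minus strand, 3 matches), Ifit1 (chr19:34640639-34640938, plus strand, 2 matches) and Oas1a (chr5:120907476-120907775, minus strand, 2 matches) are given 5′ to 3′ along the gene with the matches in capitals, and that of Cldn5 (chr16:18776597-18776896, plus strand, 0 matches), a gene that rose, for contrast.
Isg15: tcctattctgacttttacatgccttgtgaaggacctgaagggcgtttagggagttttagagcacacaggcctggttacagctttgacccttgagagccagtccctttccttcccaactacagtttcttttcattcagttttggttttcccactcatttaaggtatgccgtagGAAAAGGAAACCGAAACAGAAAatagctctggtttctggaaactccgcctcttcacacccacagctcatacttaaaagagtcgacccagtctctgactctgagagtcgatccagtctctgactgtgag
Ifit1: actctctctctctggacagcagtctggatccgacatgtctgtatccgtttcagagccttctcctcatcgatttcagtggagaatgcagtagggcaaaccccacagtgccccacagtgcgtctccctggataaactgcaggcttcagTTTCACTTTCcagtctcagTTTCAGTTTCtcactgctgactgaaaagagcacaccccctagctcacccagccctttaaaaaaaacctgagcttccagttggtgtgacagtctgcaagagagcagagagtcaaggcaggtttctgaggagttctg
Oas1a: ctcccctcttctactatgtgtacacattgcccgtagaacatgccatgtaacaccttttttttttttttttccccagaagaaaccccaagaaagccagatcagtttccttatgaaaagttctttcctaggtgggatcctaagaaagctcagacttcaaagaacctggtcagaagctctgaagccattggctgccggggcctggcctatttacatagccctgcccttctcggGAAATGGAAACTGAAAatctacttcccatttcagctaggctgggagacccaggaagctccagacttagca
Cldn5: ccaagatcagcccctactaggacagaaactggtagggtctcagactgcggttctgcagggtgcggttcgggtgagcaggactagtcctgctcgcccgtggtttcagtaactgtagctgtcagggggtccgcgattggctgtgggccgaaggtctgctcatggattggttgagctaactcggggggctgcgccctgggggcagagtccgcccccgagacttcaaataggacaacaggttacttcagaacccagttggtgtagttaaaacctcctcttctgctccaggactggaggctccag

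Guanylate-binding proteins, large GTPases induced by interferon gamma, gave 3 calls among 10 genes, all lower at 24 hr, with a median of -1.62. Gbp2 (-2.16 ± 0.50, adjusted p = 0.0264), Gbp9 (-1.57 ± 0.34, adjusted p = 0.0167) and Gbp10 (-2.94 ± 0.71, adjusted p = 0.0389) passed. Gbp2 was at 10.87, 10.34, 10.53 and 9.88 at 6 hr and 9.50, 8.08, 10.62 and 10.86 at 24 hr, so its groups overlapped and the lowest 24 hr level was again replicate 2. Gbp10 was low throughout, at 0.10 to 0.81 at 6 hr and -1.94 to 1.61 at 24 hr, and its fitted fall reversed to a rise of 0.54 without the series term. All 10 genes were higher at 6 hr than at 0 hr and 8 still at 24 hr. None of the 3 calls remained when 24 hr replicate 1 or 24 hr replicate 2 was left out, where the count was 0. MHC class I genes, which interferon also induces, gave 0 calls of 21 with a median of -0.57. Their plotted mean was lower at 24 hr for only 8 of the 21. Above 0 hr were 20 at 6 hr and 19 at 24 hr.

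Some early chemokine, cytokine and immediate early genes fell. Of 12 CC chemokines, which attract monocytes and other leukocytes, 3 were lower at 24 hr: Ccl2 (-2.89 ± 0.63, adjusted p = 0.0182), Ccl7 (-2.45 ± 0.52, adjusted p = 0.0155) and Ccl11 (-3.10 ± 0.69, adjusted p = 0.02). Ccl2 was at 9.43, 9.86, 8.92 and 5.73 at 6 hr and 8.20, 7.08, 7.44 and 8.37 at 24 hr, against -0.34 to 1.44 at 0 hr. The groups overlapped through 6 hr replicate 4, whose level was the lowest, and the count of CC chemokines called was 0 when 6 hr replicate 1 was left out. Of 12 CC chemokines 9 were higher than at 0 hr at 6 hr and 10 at 24 hr. Of 10 CXC chemokines none passed in either direction (median -1.36). Cxcl10 was at 9.60, 9.61, 9.59 and 5.69 at 6 hr and 6.24, 5.55, 9.66 and 9.86 at 24 hr, with 24 hr replicates 4 and 5 level with the 6 hr libraries, a log2 fold change of -3.53 ± 1.07 and an adjusted p of 0.142.

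Among 27 cytokines and receptors, Lif, an interleukin-6 family cytokine (-3.69 ± 0.91, adjusted p = 0.0409), and Cd40, a costimulatory receptor (-1.64 ± 0.35, adjusted p = 0.0155), were lower. Lif spread from 0.55 to 7.16 at 6 hr and from 2.32 to 3.70 at 24 hr. The plotted mean was lower at 24 hr for only 13 of the 27, with a fitted median of -0.53. Il6 was at 4.98, 6.45, 4.91 and 2.61 against 4.26, 3.32, 6.01 and 6.46, and its fitted -3.10 ± 0.87 did not pass (adjusted p = 0.0974). Of 23 immediate early transcription factors and related genes, 3 were lower: Atf3 (-2.02 ± 0.39, adjusted p = 0.00804), the antiproliferative Btg2 (-1.41 ± 0.34, adjusted p = 0.0348) and Ier5 (-0.95 ± 0.24, adjusted p = 0.0464). For only 11 of these 23 was the plotted mean lower at 24 hr, with a fitted median of -0.79. Ier5 was at 8.05 to 8.66 at 6 hr and 7.23 to 7.66 at 24 hr without overlap, while Fos (-1.11 ± 0.74, adjusted p = 0.753) overlapped. The 23 NF-kappaB factors and feedback inhibitors gave 0 calls (median -0.63), and the plotted mean was lower at 24 hr for only 6 of them. Of the 23 genes, 21 were above 0 hr at 6 hr and 20 at 24 hr. Ptgs2, the inducible cyclooxygenase, was lower (-2.30 ± 0.53, adjusted p = 0.0272), as were the necroptosis genes Zbp1 (-1.83 ± 0.44, adjusted p = 0.0395) and Mlkl (-1.75 ± 0.39, adjusted p = 0.0214) and Kcnj2, an inward rectifier potassium channel (-1.13 ± 0.27, adjusted p = 0.0327). None of these 4 genes was called with all 9 libraries.

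Other lower genes belonged to no inflammatory list. Noct, the clock-linked phosphatase nocturnin, was at 7.60, 8.49, 7.62 and 6.76 at 6 hr and 6.38, 6.11, 6.03 and 6.58 at 24 hr (-1.27 ± 0.28, adjusted p = 0.0203). Bcr, a regulator of small GTPases, was at 7.44 to 7.91 at 6 hr and 5.85 to 6.65 at 24 hr (-1.05 ± 0.15, adjusted p = 0.000469). Sema6a, a transmembrane semaphorin, was at 6.25 to 6.63 and 4.47 to 5.70 (-0.83 within series 2, adjusted p of the fit 0.0383). In each of these 3 genes the groups did not overlap.

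Acute-phase genes were above 0 hr at both times, and neither they nor adhesion molecules passed between 24 hr and 6 hr. Of 20 acute-phase and secreted inflammatory genes, 19 were higher than at 0 hr at 6 hr and 19 at 24 hr, and the median between the times was -0.12 (0.42 with all 9 libraries). Lcn2 was at 12.59, 12.50, 13.20 and 13.06 at 6 hr and 14.50, 13.60, 14.86 and 15.17 at 24 hr, which did not overlap, yet the fitted log2 fold change was 0.12 ± 0.75 (adjusted p = 0.991). Saa3 was at 10.63 to 10.72 at 6 hr and 11.80 to 13.64 at 24 hr, again without overlap, with a fitted 1.12 ± 0.75 (adjusted p = 0.753). Complement C3 was at 4.50 to 5.35 at 6 hr and 5.55 to 8.08 at 24 hr (1.93 ± 0.67, adjusted p = 0.249). Within series 2, Lcn2, Saa3 and C3 were higher at 24 hr by 0.77, 1.12 and 0.61.

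Of 15 adhesion molecules 0 passed (median 0.21). Selp, encoding P-selectin, which tethers rolling leukocytes, was at 6.95, 7.21, 7.20 and 6.14 at 6 hr and 8.59, 7.36, 7.34 and 7.37 at 24 hr, against -2.22 to 0.15 at 0 hr. The levels did not overlap, but the fitted value was -0.90 ± 0.71 (adjusted p = 0.835). Icam1, the integrin ligand for firm adhesion, was at 8.23 to 10.10 at 6 hr and 9.46 to 10.63 at 24 hr (-0.48 ± 0.45, adjusted p = 0.883). C3ar1, the receptor for the C3a fragment, was the 1 of 18 complement genes called, higher at 24 hr with and without replicate 6 (1.81 ± 0.38 without, adjusted p = 0.0155), though its levels of 1.85, 3.66, 0.33 and -0.03 at 24 hr overlapped 1.23 to 1.37 at 6 hr.

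**Figure D3:**
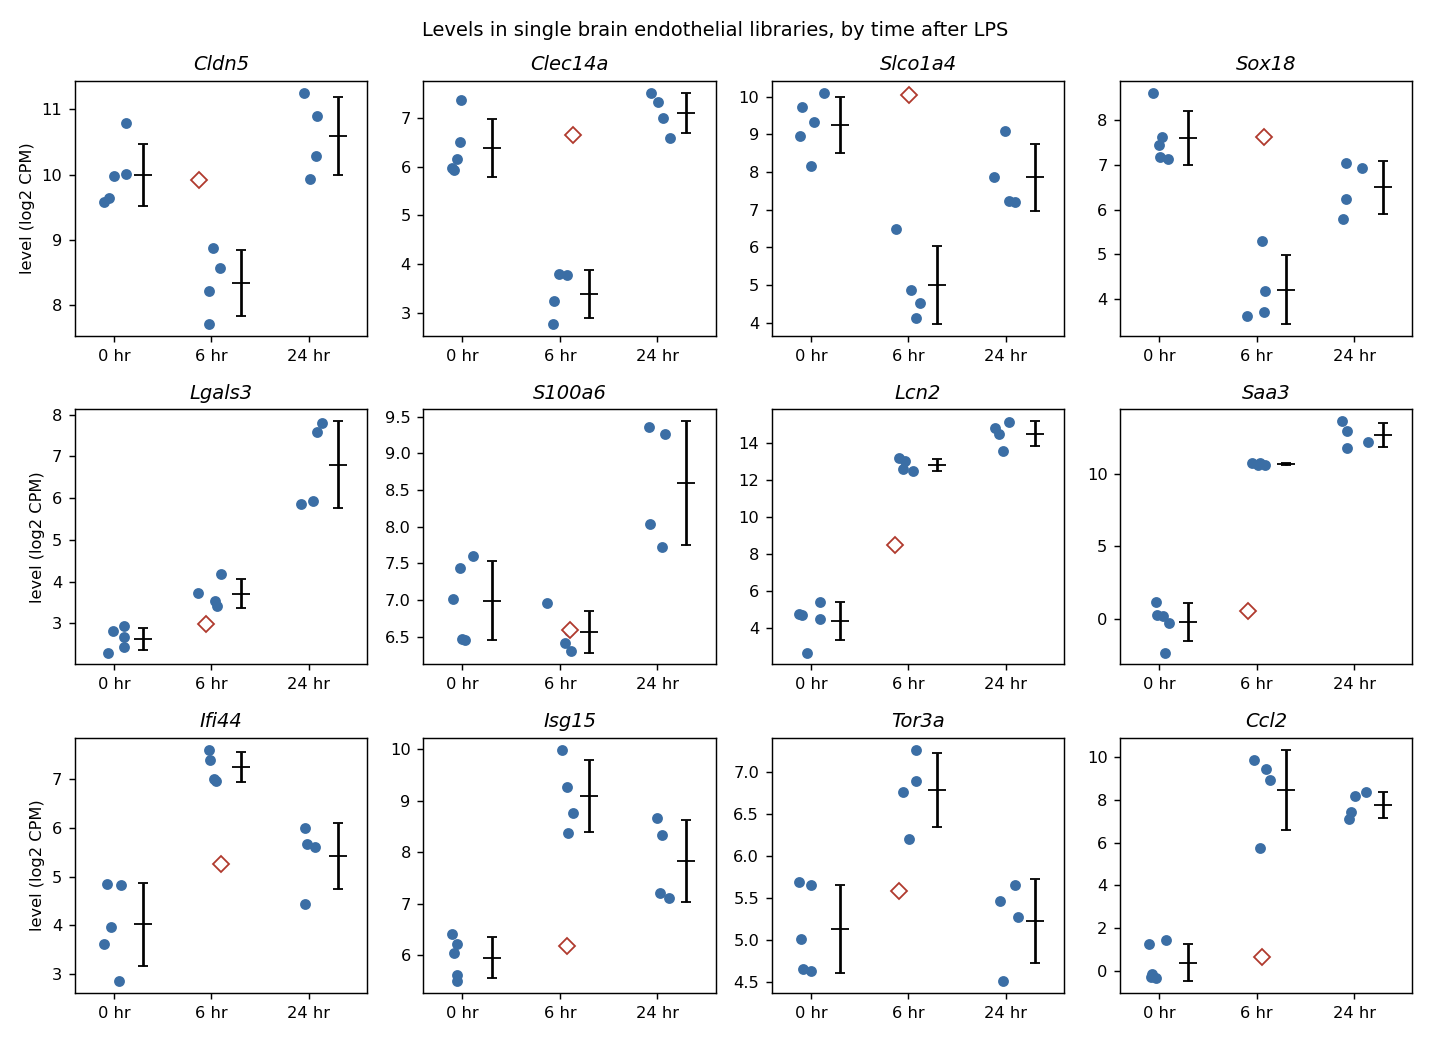
Level (log2 CPM) of 12 genes in each brain library at 0, 6 and 24 hr, 1 point per library with the mean and SD beside each group. The open diamond is 6 hr replicate 6, which is left out of the mean and SD. By their means, Cldn5, Clec14a, Slco1a4 and Sox18 were lowest at 6 hr, Lgals3 and S100a6 highest at 24 hr, and Lcn2 and Saa3 high at both times. Ifi44, Isg15 and Tor3a had their highest mean at 6 hr. The 6 hr and 24 hr levels of Isg15 and of Ccl2 overlapped.

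Some genes of endothelial identity rose. Of the 14 endothelial markers, 5 were higher at 24 hr than at 6 hr (Slco1a4, Egfl7, Cldn5, Tek and Tie1) and 0 lower, with a median of 0.70. The fitted value was negative for 4 of the 14. With all 9 libraries the median was 0.21 and 2 were called higher. At 6 hr 7 of the 14 were lower than at 0 hr, beside 6.71% of all genes, and 4 were still lower at 24 hr, beside 5.91%. For 9 of the 14 markers the 24 hr levels all lay above the 6 hr levels, where 12.0% of all genes did so. The summed endothelial marker level was also higher at 24 hr, and the neuron and oligodendrocyte sums were lower in 3 of the 4 libraries at 24 hr. The part of these sums in the results was not tested.

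Cldn5, the claudin that seals brain endothelial tight junctions (chromosome 16, 18776847 to 18778262), was at 7.70, 8.57, 8.22 and 8.87 at 6 hr and 10.29, 9.93, 11.26 and 10.90 at 24 hr. The groups did not overlap, 6 hr replicate 6 (9.91) included, and Cldn5 rose by 1.74 ± 0.30 without and 1.41 ± 0.30 with that library (adjusted p = 0.00243 and 0.032). At 24 hr it was near its 0 hr level of 9.59 to 10.79 (0.28 ± 0.27, adjusted p = 0.541). Lsr, the angulin of tricellular contacts, went from 6.39, 6.13, 6.17 and 7.46 to 8.20, 8.32, 8.25 and 8.40 (1.37 ± 0.28, adjusted p = 0.0131), and Igsf5, a low junctional adhesion molecule, from -0.39 to 0.64 to 1.66 to 2.95 (1.85 ± 0.37, adjusted p = 0.00927). These were the 3 of 17 tight junction genes that passed, and Ocln, encoding occludin, was not among them (0.03 ± 0.30, adjusted p = 0.993). Nectin2 was the 1 of 13 adherens junction genes called, also with all 9 libraries (1.28 ± 0.24 without replicate 6, adjusted p = 0.00688), while Cdh5, which drives the Cre, had -0.76 ± 0.28 (adjusted p = 0.295).

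Clec14a, a lectin-like surface protein of ECs (chromosome 12, 58264720 to 58269290), showed the largest fitted rise among the genes named by size. It was at 2.76, 3.78, 3.24 and 3.80 at 6 hr and 6.58, 7.00, 7.32 and 7.52 at 24 hr, with 5.94 to 7.36 at 0 hr. The log2 fold change was 3.18 ± 0.38 (adjusted p = 5.66e-05), and 2.36 ± 0.44 with all 9 libraries (adjusted p = 0.018). Slco1a4, the organic anion transporter of brain capillaries (chromosome 6, 141805440 to 141856199), was at 4.11, 4.86, 4.51 and 6.47 at 6 hr and 9.10, 7.86, 7.24 and 7.21 at 24 hr. It rose by 2.50 ± 0.50 without replicate 6 (adjusted p = 0.0101), but 10.04 in that library put the value with all 9 at 0.68 ± 0.67 (adjusted p = 0.75). At 24 hr Slco1a4 was still below its 0 hr range of 8.15 to 10.10 in 3 of 4 libraries.

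The other endothelial genes named by size were also low at 6 hr. The secreted Egfl7 went from 5.32, 5.72, 5.67 and 5.94 to 7.78, 7.63, 9.22 and 10.00 (1.88 ± 0.44, adjusted p = 0.0284), and the endothelial heat shock protein gene Hspa12b from 4.26 to 5.55 to 6.46 to 7.10 (1.85 ± 0.32, adjusted p = 0.00249). Car4, a carbonic anhydrase on the capillary surface, was at 6.07, 6.46, 6.45 and 6.56 and then 8.24, 7.99, 7.66 and 8.02 (1.68 ± 0.26, adjusted p = 0.000898; with all 9 libraries 1.29 ± 0.27, adjusted p = 0.0303). Eogt, which adds N-acetylglucosamine to EGF repeats such as those of Notch, rose by 1.50 ± 0.26 (adjusted p = 0.00302) and stayed below 0 hr at 24 hr (-1.04, adjusted p = 0.00516). The angiopoietin receptor gene Tek was at 4.41 to 5.08 at 6 hr and 5.29 to 6.44 at 24 hr, both far below 7.25 to 8.58 at 0 hr (1.28 ± 0.29 between the times, adjusted p = 0.0271; 0.05 ± 0.47 with all 9, adjusted p = 0.979). Its relative Tie1 was at 5.86 to 6.28 and then 7.20 to 7.70 (1.11 ± 0.18, adjusted p = 0.00102), and was called with all 9 libraries as well.

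A minority of the transcription factors of endothelial identity rose. Of 24 core endothelial factors 6 were higher at 24 hr and 0 lower, with a median of 0.32 and a negative fitted value for 8. At 6 hr 12 were lower than at 0 hr, beside 6.71% of all genes, and at 24 hr 3 were, beside 5.91%. Sox18, a SoxF factor (chromosome 2, 181669836 to 181671640), was at 3.71, 3.62, 4.17 and 5.30 at 6 hr and 7.04, 6.94, 6.23 and 5.79 at 24 hr (2.16 ± 0.47, adjusted p = 0.0168). Its relative Sox17 was at 3.67, 3.73, 3.76 and 4.25 and then 5.58, 5.52, 6.37 and 6.38 (1.42 ± 0.29, adjusted p = 0.0104). Neither group overlapped without 6 hr replicate 6, which was at 7.62 and 6.69, and neither gene was called with it. The ETS factors Fli1 (1.83 ± 0.31, adjusted p = 0.00243) and Elk3 (1.16 ± 0.27, adjusted p = 0.0284), the low bHLH factor Lyl1 (2.94 ± 0.58, adjusted p = 0.00867) and Tbx1 (1.36 ± 0.23, adjusted p = 0.00185) made up the rest. Erg, an ETS factor close to Fli1, did not pass (-0.06 ± 0.22, adjusted p = 0.99), with 6.17 to 6.44 at 6 hr and 6.51 to 7.36 at 24 hr. For 14 of the 24 factors all 24 hr levels lay above all 6 hr levels without replicate 6, where 12.0% of all genes did so.

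Wnt pathway genes of brain vessels gave 5 calls of 22, all higher at 24 hr, with a median of 0.53. At 6 hr 17 of the 22 had been below 0 hr, beside 6.71% of all genes, and 11 still were at 24 hr, beside 5.91%. The called genes were Tcf7, a nuclear effector (1.91 ± 0.27, adjusted p = 0.000235), the co-receptor gene Lrp5 (1.21 ± 0.28, adjusted p = 0.0305), Adgra2, which with Reck presents Wnt7 ligands (1.31 ± 0.29, adjusted p = 0.0192), the feedback inhibitor gene Nkd1 (1.34 ± 0.27, adjusted p = 0.0106) and Sox17. Tcf7 was at 3.01, 3.42, 2.75 and 3.60 at 6 hr and 5.55, 5.35, 5.84 and 5.96 at 24 hr, against 5.46 to 7.10 at 0 hr. The target gene Axin2 was at 3.39 to 4.02 and then 4.30 to 4.95 without overlap, but did not pass (0.61 ± 0.22, adjusted p = 0.291). Foxq1 had -0.03 ± 0.27 (adjusted p = 0.992) and Lef1 -0.33 ± 0.26 (adjusted p = 0.827). Among 20 Notch pathway and arterial genes, Bmx (1.64 ± 0.38, adjusted p = 0.0267), Sema3g (1.38 ± 0.30, adjusted p = 0.0174) and Sox17 were higher.

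Leaving out 24 hr replicate 2 lowered the calls in these lists to 1 of 22 Wnt genes, 1 of 24 transcription factors and 0 of 20 Notch and arterial genes, with medians of 0.51, 0.22 and 0.34. With all 9 libraries 0 genes of these 3 lists passed, at medians of 0.17, 0.21 and 0.12. Members of the lists overlap, and Sox17 was counted in each.

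**Figure D4:**
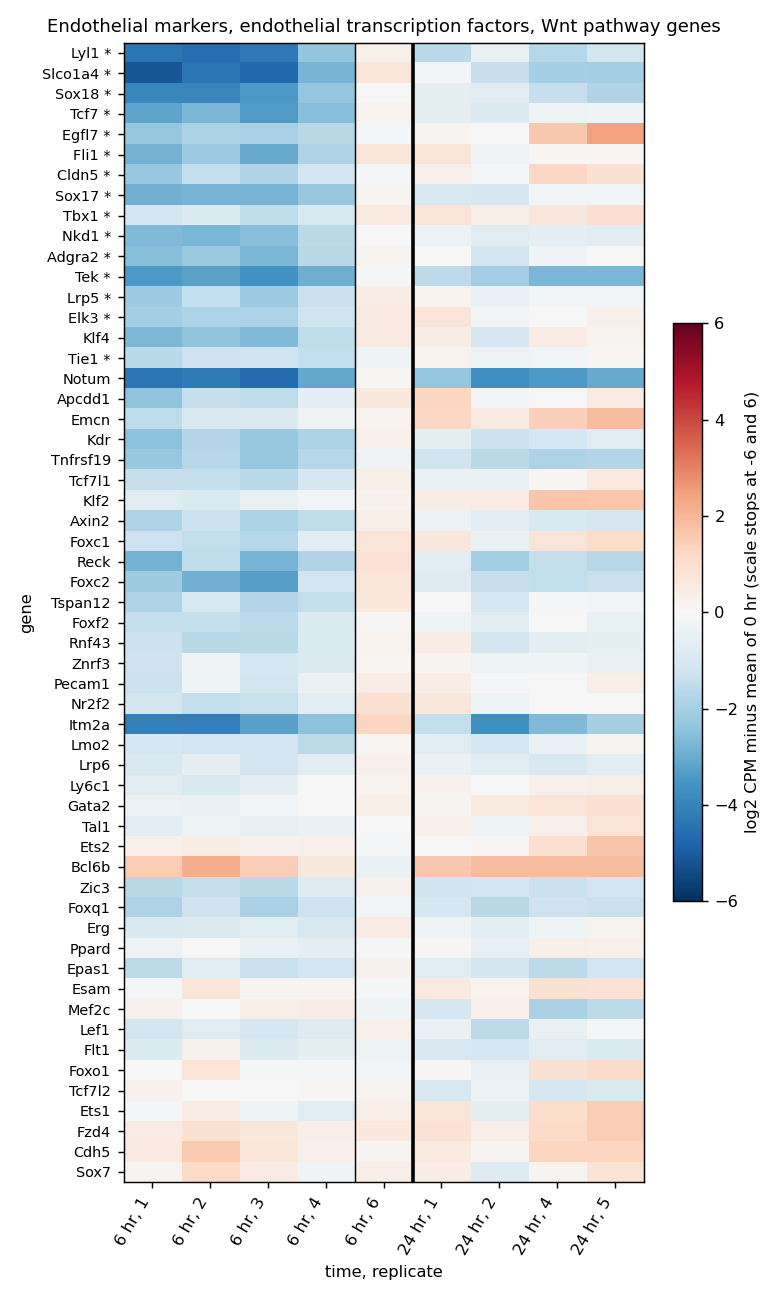
Level of the endothelial markers, endothelial transcription factors and Wnt pathway genes in each of the 9 libraries as log2 CPM minus the mean of the 0 hr libraries (colour, scale from -6 to 6), ordered by fitted log2 fold change without 6 hr replicate 6, with an asterisk at the genes called higher at 24 hr. The upper rows are below 0 hr in 6 hr replicates 1 to 4 and closer to it at 24 hr, while 6 hr replicate 6 is near 0 hr throughout.

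Barrier carriers were largely below 0 hr at both times. Of 28 nutrient and hormone carriers, 17 were lower than at 0 hr at 6 hr, beside 6.71% of all genes, and 15 at 24 hr, beside 5.91%. Slco1a4 was the 1 carrier that differed between the times (median 0.17). Slco1c1, the thyroxine carrier, was at 5.09, 6.36, 5.59 and 6.36 at 6 hr and 4.27, 3.91, 4.34 and 2.95 at 24 hr, against 8.52 to 9.84 at 0 hr. Its levels did not overlap between 6 hr and 24 hr, but the fitted -0.47 ± 1.00 did not pass (adjusted p = 0.974). Mfsd2a, which carries docosahexaenoic acid in lysophospholipid form, was at 5.35 to 5.97 and 4.67 to 5.68 (-0.11 ± 0.30, adjusted p = 0.981), below 6.78 to 7.58 at 0 hr. Slc2a1, the glucose transporter GLUT1 gene, had -0.24 ± 0.29 (adjusted p = 0.926). Of 10 efflux transporters 0 passed, with Abcb1a, encoding P-glycoprotein, at 0.73 ± 0.30 (adjusted p = 0.412). The 11 caveolae and diaphragm genes had the highest median of the lists, 0.83, with 0 calls; Cav1 was at 4.01 to 4.73 and 4.74 to 5.74 (0.83 ± 0.47, adjusted p = 0.661).

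A smaller set rose at 24 hr above both 6 hr and 0 hr. Lgals3, encoding the galactoside-binding lectin galectin-3 (chromosome 14, 47367751 to 47386160), was at 3.73, 3.53, 3.42 and 4.19 at 6 hr and 5.87, 5.93, 7.60 and 7.81 at 24 hr, with 2.29 to 2.93 at 0 hr. It was higher than at 6 hr with either set of libraries (1.89 ± 0.40, adjusted p = 0.0155; with all 9, 2.17 ± 0.40, adjusted p = 0.0176). The laminin receptor subunits Itga3 and Itga6 were at 4.73 to 5.10 and 6.81 to 7.58 at 6 hr and at 6.59 to 7.05 and 8.07 to 8.53 at 24 hr (1.26 ± 0.28 and 1.01 ± 0.24, adjusted p = 0.0182 and 0.0296). Tinagl1, a matrix protein of vessels, was at 6.63 to 7.44 and 8.74 to 8.95 (1.17 ± 0.28, adjusted p = 0.0351), and the calcium-binding Nucb2 at 4.99 to 5.47 and 6.31 to 7.27 (1.10 ± 0.26, adjusted p = 0.0293). Itga3, Itga6, Tinagl1 and Nucb2 were also higher at 24 hr than at 0 hr and were called with all 9 libraries.

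S100a6, a calcium-binding protein, was at 6.31 to 6.96 at 6 hr and 7.72 to 9.37 at 24 hr (1.28 ± 0.32, adjusted p = 0.0478). Fkbp10, a collagen chaperone, was at 3.64, 3.89, 3.46 and 4.47 and then 6.80, 6.01, 6.77 and 7.08 (1.77 ± 0.35, adjusted p = 0.00927), and both were called with all 9 libraries. Perivascular fibroblast markers were higher at 24 hr in the same libraries, with values given above and 1581 to 7698 CPM at 0 hr, and their part in these results was not tested. Klf10 (1.17), Caskin2 (1.30) and the kinase gene Ick (1.27) completed the genes named from the 9 libraries.

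The gene with the largest fitted rise, singled out after its values were seen because its mean level was too low for the naming rule, was Marco, a class A scavenger receptor known from macrophages (chromosome 1, 120474538 to 120505024). It was at -1.01, -0.43, 0.19 and -1.25 at 6 hr and 4.89, 6.72, 4.41 and 3.16 at 24 hr, and at most -2.48 at 0 hr. The log2 fold change was 6.55 ± 0.68 (adjusted p = 8.05e-06), and 6.66 ± 0.63 with all 9 libraries (adjusted p = 2.05e-06). Beside it, 12 microglia and macrophage markers summed to 289 to 424 CPM at 6 hr and 241 to 394 CPM at 24 hr. Of these markers Cd68, a lysosomal protein, was the 1 called, at 2.47 to 2.94 and 3.96 to 4.38 (1.86 ± 0.43, adjusted p = 0.0271; with all 9 libraries 2.19 ± 0.43, adjusted p = 0.0215). Def6, an exchange factor for small GTPases, had an equally small adjusted p and was also chosen after its values were seen: it was at 2.52, 2.69, 2.61 and 3.43 at 6 hr and 5.64, 5.07, 6.21 and 5.91 at 24 hr (2.21 ± 0.23, adjusted p = 8.05e-06; with all 9 libraries 1.80 ± 0.26, adjusted p = 0.00137).

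**Figure D5:**
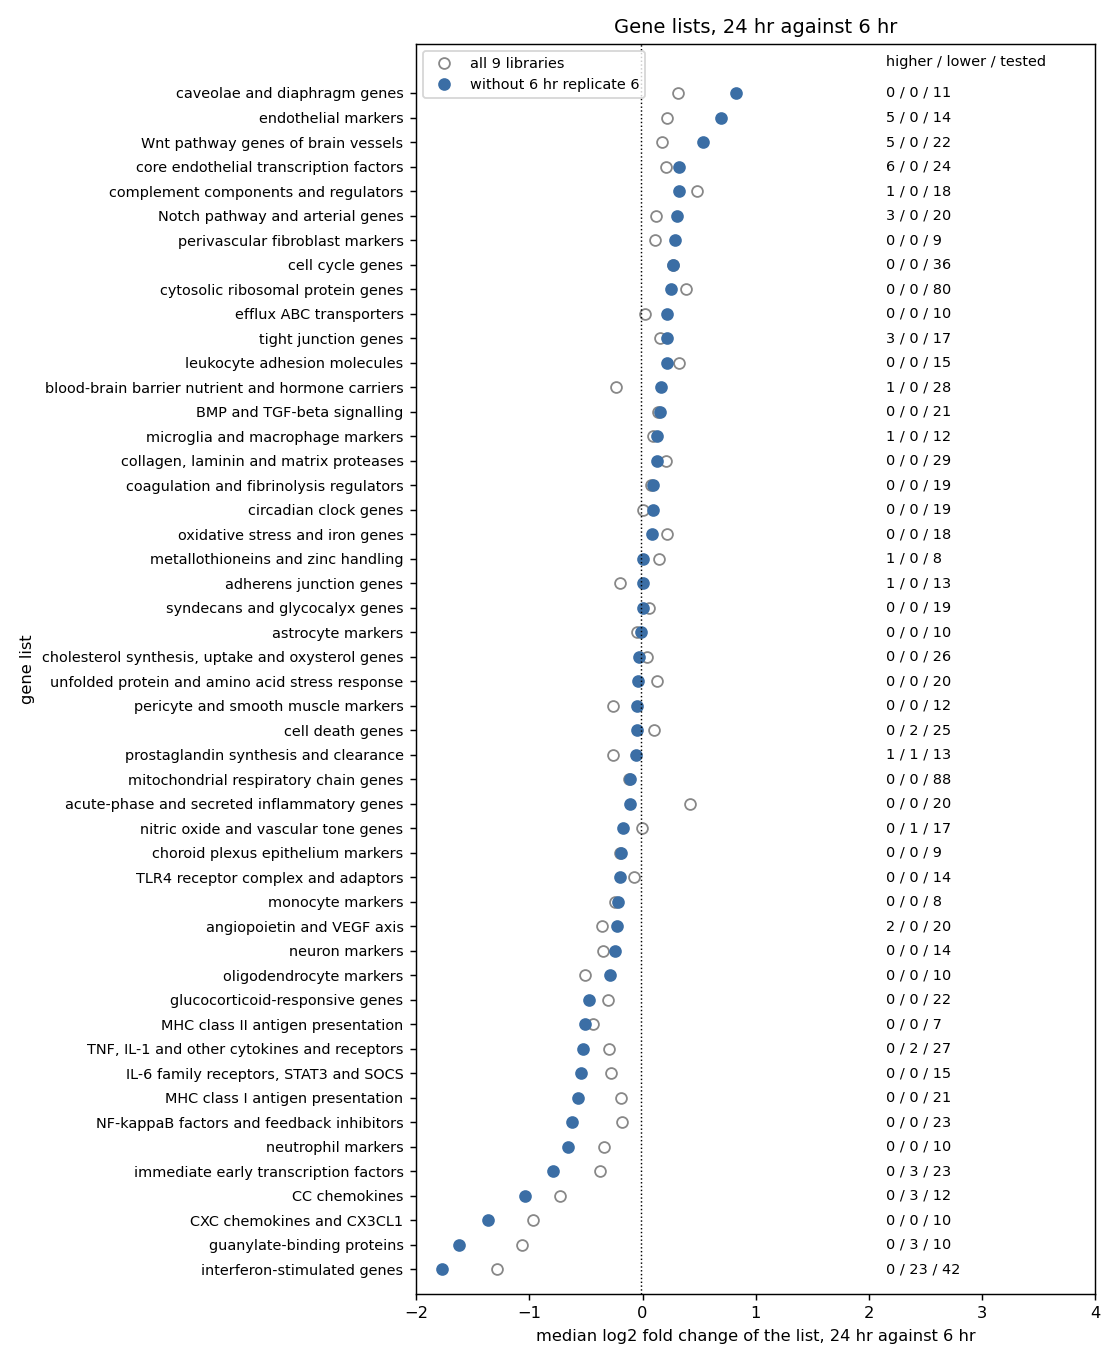
Median fitted log2 fold change, 24 hr against 6 hr, of each gene list drawn, with all 9 libraries (open circles) and without 6 hr replicate 6 (filled circles), with the number of genes called higher, called lower and tested in the fit without it. The lymphocyte and red cell marker lists, which had the fewest genes tested, are not drawn. Interferon-stimulated genes are at the bottom (-1.77, 23 of 42 called lower) and endothelial markers near the top (0.70, 5 of 14 called higher), and most lists have no call.

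With all 9 libraries no listed gene was called lower, and the calls higher were 2 endothelial markers and 1 gene each of the tight junction, adherens junction, angiopoietin and VEGF, complement and microglia lists. Many processes gave no call between the times in either fit. None of 36 cell cycle genes, 26 cholesterol genes, 20 unfolded protein response genes, 19 clock genes, 22 glucocorticoid-responsive genes, 18 oxidative stress and iron genes, 19 coagulation genes, 21 BMP and TGF-beta genes, 29 matrix genes or 19 glycocalyx genes passed. The same held for 88 respiratory chain genes (median -0.11) and 80 cytosolic ribosomal protein genes (median 0.25). Ptgis, which makes prostacyclin, was higher at 24 hr (1.34 ± 0.27, adjusted p = 0.00962), as was Slc39a8, a zinc carrier (0.82 ± 0.21, adjusted p = 0.0478).

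The shift was compared with that of heart endothelium, where the library labelled 6 hr replicate 5 lay within the 0 hr range in 30 of 50 strongly induced genes and below every other 6 hr library in 50. With all libraries 1 of 19924 genes (0.00502%) had a more positive shift in brain and 4 (0.0201%) a more negative one. Without that library and 6 hr replicate 6 of brain, 668 of 19928 genes (3.35%) were more positive in brain and 911 (4.57%) more negative, with 4 libraries at 24 hr and 4 at 6 hr in each tissue. Leaving out heart 6 hr replicate 1 gave 392 and 548, and leaving out heart 6 hr replicate 4 gave 1087 and 1426. Heart 24 hr replicate 1 and heart 6 hr replicate 3 moved the more positive genes to 431 and 425.

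Of the 42 interferon-stimulated genes 0 passed the test of a difference between the tissues, which does not show that the shifts were equal. Ifi44 had a difference of -0.10 ± 0.47. Tor3a, which is not on the list, had -2.15 ± 0.22 in brain and -2.29 ± 0.24 in heart, a difference of 0.14 ± 0.33. Of the 10 guanylate-binding proteins and 23 immediate early genes 0 differed either. Of 23 NF-kappaB genes 5 were more positive in brain (Relb, Nfkbib, Traf1, Traf2 and Ripk2), by 1.07 to 1.77, and of 21 MHC class I genes 4 were (Tap2, Psmb10, Psme2 and Erap1), by 0.77 to 1.73. Of 80 cytosolic ribosomal protein genes 17 were more positive in brain, with a median of 0.86 over the list. Reads without a unique alignment made up 41.2% to 49.5% in heart 6 hr replicates 1 to 4 and 33.0% to 40.8% in heart at 24 hr. In brain they made up 31.2% to 35.4% in 6 hr replicates 1 to 4 and 32.7% to 38.5% at 24 hr. Such reads enter no gene count, and their part in this difference was not tested.

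Several endothelial genes had the more positive shift in heart, though most members of their lists did not differ. Such genes numbered 1 of 24 core endothelial factors, 2 of 14 endothelial markers and 3 of 22 Wnt genes. They numbered 2 of 17 tight junction and 4 of 13 adherens junction genes, beside 4.57% of all genes. More positive in brain were 1 tight junction gene and 1 adherens junction gene. Itga6 rose by 1.01 ± 0.24 in brain and by 2.32 in heart (difference -1.31 ± 0.37, adjusted p = 0.0191). Lrp5 differed by -1.45 (adjusted p = 0.0194), Erg by -1.53 (adjusted p = 0.00542), and Cdh5 by -1.44 (adjusted p = 0.0249). Ocln had 0.03 ± 0.30 in brain and 2.03 ± 0.44 in heart (adjusted p of the difference 0.0196). Sema6a was lower at 24 hr in brain and had 0.48 in heart (difference -1.48 ± 0.39, adjusted p = 0.0127). Cldn5 (difference 1.27 ± 0.48, adjusted p = 0.0944) and Car4 (1.33 ± 0.44, adjusted p = 0.0513) had larger fitted shifts in brain, but the difference did not pass.

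Mfsd2a had the largest positive difference among the 28 listed nutrient and hormone carriers. It had -0.11 ± 0.30 in brain and -3.92 in heart, where its mean level went from 1.66 to -1.24 log2 CPM (difference 3.81 ± 0.63, adjusted p = 0.000159). Among the other genes with large positive differences were AI593442, Slc1a3 and Ntrk3. These, and Aff3, averaged below 0 log2 CPM in heart at both times, so no fold is given for them here. Among the largest negative differences were those of Coro2b (-3.88 ± 0.49), Fmo2 (-3.83 ± 0.81), Spock2 (-3.81 ± 0.69), Aff3 and Porcn (-3.59 ± 0.39), each with a fitted brain shift between -0.42 and 0.01.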

How the data were processed

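Ribosome-bound mRNA was pulled down through HA-tagged Rpl22 from brain, lung and heart and sequenced. The authors aligned the reads to mm10 and deposited raw counts of reads per gene for each sequencing run. The submitters' processing notes name STAR 2.4.2 and HTSeq 0.6.1. The annotation release and the strand setting are not given in the sources used here.

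Runs of one library were summed, and libraries under 3% of reads on genes were left out, where rows that name no gene entered only that share. Of 52550 gene identifiers 52403 had a symbol. Kept libraries of 6 and 24 hr held 9085705 to 28391180 gene counts. Coordinates are those of GENCODE M21 on GRCm38. Library series were read from the file names and cannot be told apart from time where a series holds only 1 of the times.

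All kept brain libraries were fitted with edgeR 4.0.16 (TMM scaling, quasi-likelihood test, time and library series as terms, R 4.3.3), and 24 hr was compared with 6 hr at a Benjamini-Hochberg adjusted p threshold of 0.05. The shift was compared with that of heart by an interaction term. The same fits without 6 hr replicate 6 of brain, and without 6 hr replicate 5 of heart, were added after the values were seen. Expression levels were computed as log2 CPM after adding a prior count of 2. "Do not overlap" means that every level of one group lay above every level of the other.

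In each direction the 12 genes with the largest fold change among those called, with a mean of at least 5 log2 CPM and no overlap, were named, with up to 4 called genes per list and direction, defining list members that did not pass, and for heart the 6 largest differences in each direction, of which some genes are not reported here. The lists, the members and this comparison were chosen with earlier results of these data known. Alternatives used DESeq2 1.42.0, limma 3.58.1 and sva 3.50.0, and tables and figures Python 3.11.15, pandas 2.3.3, numpy 2.4.6 and matplotlib 3.10.9. Counts were simulated with a dispersion of 0.1, no series effect and 100 genes changed by each size. There 6 hr replicate 6 was drawn like the other 6 hr libraries. The fit without 6 hr replicate 6 (18615 genes) recovered 11% at an absolute log2 fold change of 1 and 89% at 2. Of its calls 4.76% were false. The fit of the 9 libraries (18557 genes) recovered 25% and 97%, with 2.4% false. The comparison with heart, simulated with all libraries (18479 genes), recovered 4% and 61%, with 0% false. These shares do not carry over to the real fits, where 6 hr replicate 6 lay near the 0 hr level.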

Additional observations from a re-analysis of the deposited data

Results flagged for a closer look

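Of 260 groups of levels examined for the 65 named genes, 32 held a library far from the rest, measured as the gap from the farthest library to its nearest neighbour over the range of the group. Chance gives about 1 in 20 such groups where groups are independent. Apart from the 6 hr groups that include replicate 6, 12 of 195 groups held such a library. The groups share libraries and the genes were chosen by their levels, so this rate cannot show whether a library stands out. Genes named from the fit without 6 hr replicate 6 are not an independent check of that library. In 20 of the 32 the library was 6 hr replicate 6 among the 5 libraries of 6 hr. It was the highest for genes below 0 hr in the other 6 hr libraries, with gaps of 0.734 for Clec14a, 0.717 for Egfl7, 0.726 for Eogt, 0.86 for Slc39a8, 0.778 for Ptgis, 0.721 for Igsf5, 0.807 for Tek, 0.746 for Bmx, 0.806 for Sox17 and 0.767 for Tcf7. It was the lowest with gaps of 0.727 for Ifi44, 0.747 for Bcr, 0.72 for Ier5, 0.804 for Ccl11, 0.777 for Mx1, 0.796 for Oas3, 0.769 for Gbp2, 0.903 for C3ar1, 0.824 for Zbp1 and 0.812 for Cd68.

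Without that library, 6 hr replicate 4 lay far from the other 3 for 6 genes. It was the lowest for Ccl11 (0.866), Cd40 (0.908) and Oasl1 (0.84) and the highest for Sox17 (0.839), Nkd1 (0.852) and Lyl1 (0.858). At 24 hr replicate 2 was the lowest for Oas3 (0.976), Gbp10 (0.886) and Gbp9 (0.861), and replicate 4 for Eogt (0.905). At 0 hr replicate 1 was the highest for Gbp10 (0.719) and replicate 5 for C3ar1 (0.728).

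The shift from 6 hr to 24 hr differed between brain and heart by the interaction test, without the 2 libraries near the 0 hr level, for 11 of the genes named by size or by list between 24 hr and 6 hr or by size between the tissues, beside the list members given with the heart comparison. On the log2 scale, brain minus heart, it was -1.31 for Itga6, -1.48 for Sema6a, 3.81 for Mfsd2a, -3.88 for Coro2b, -3.83 for Fmo2, -3.81 for Spock2 and -3.59 for Porcn. The fitted differences of AI593442 (4.77), Slc1a3 (3.96), Ntrk3 (3.88) and Aff3 (-3.71) rest on heart levels below 0 log2 CPM, so their size is uncertain.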

How the results depend on the processing

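Libraries held 9085705 to 28391180 gene counts, with 4 or 5 libraries a group. With all 9 libraries (51 genes higher, 5 lower at 24 hr), the counts were 361 and 213 with ComBat then limma, 190 and 90 with DESeq2, 183 and 23 without the library series term, 204 and 142 without the low-count filter, 592 and 356 with only the 6 and 24 hr libraries and no series term, and 1 and 0 with only those of series 1 and 2. The lower genes were 22 with libraries under 3% kept and 1 with limma-voom. Leaving out single libraries gave 4 to 125 higher and 0 to 95 lower genes, the highest of both without 6 hr replicate 6 and the lowest without 24 hr replicate 2. Without 6 hr replicate 6 (125 and 95), the counts were 481 and 293 with ComBat, 226 and 170 with DESeq2, 323 and 285 without the filter, 1902 and 1247 with only the 6 and 24 hr libraries, and 1 and 0 within series 2, where 5 libraries remain. The higher genes were 522 without the series term. Leaving out a further library gave 26 to 168 higher, from 24 hr replicate 2 to 6 hr replicate 4, and 31 to 149 lower, from and to the same libraries.

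For brain against heart with all libraries (1 more positive, 4 more negative), DESeq2 gave 79 and 36, series shared by both tissues 362 and 321, no series term 131 and 82 and no filter 253 and 66. RLE scaling gave 4 and limma-voom 0 more positive. Leaving out single libraries gave 0 to 1024 and 0 to 1359, the highest without heart 6 hr replicate 5. Without the 2 libraries (668 and 911), shared series gave 1536 and 1735 and DESeq2 1205 more positive. Leaving out a further library gave 392 to 1087 and 548 to 1426, from heart 6 hr replicate 1 to heart 6 hr replicate 4. Keeping libraries under 3% was not run for heart. The cause of these changes was not tested.

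With the replicate number as a block, the 9 libraries gave 39 higher and 20 lower genes, and the fit without 6 hr replicate 6 gave 109 and 75. The deviations of same-numbered libraries from their group means correlated at -0.334, -0.154 and -0.352 for replicates 1, 2 and 4. Library series was not removed from these deviations, and replicates 1 and 4 compare libraries of different series. The 6 hr mean also included 6 hr replicate 6. The correlations therefore cannot show whether same-numbered libraries are paired.

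Signs turned for 6 genes. With all 9 libraries, Ccl2 was at 0.35 with limma-voom. With only series 1 and 2, Ccl2 was at 2.14, Ccl7 at 0.45, Zbp1 at 0.75 and Ptgs2 at 0.83. Without the series term Gbp10 was at 0.74, Zbp1 at 0.24 and Tek at -0.30, and with only the 6 and 24 hr libraries at 0.71, 0.22 and -0.33. Tek ranged from -0.11 without 6 hr replicate 2 to 1.28 without 6 hr replicate 6. Without 6 hr replicate 6, Gbp10 was at 0.54 and 0.55 in those fits. Of 1170 fold changes of named genes recomputed without 6 hr replicate 6, 844 kept their direction and side of the threshold and 324 kept the direction only. Of 1300 with all 9 libraries these numbers were 1046 and 108, and 130 passed newly. Alternatives to the fits without 6 hr replicate 6 were chosen after seeing the data.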
